A study of Mus musculus with 12 samples.

Results

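Livers labelled Cyp1b1 null from mice fed a high-fat diet were compared with wild-type livers from mice fed a low-fat diet, to find which liver genes and pathways of the first lay at the lean wild-type level and which did not. The comparison took the 3 arrays labelled as null on high fat and the 3 arrays labelled as wild type on low fat, 6 of the 12 arrays of the study, and covered 14911 genes. The other arrays, 3 of wild-type high-fat livers and 3 of null-labelled low-fat livers, entered the same fit for the estimate of the spread and are given beside the results. Genotype and diet differ together here, so the comparison measures their joint difference, and the part of each is visible only in the levels of the other 2 groups.

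All mice were male and 14 weeks old, and had been weaned at 3 weeks onto a diet with 60% fat (high fat) or 10% fat (low fat). The wild-type strain was labelled C57BL6/J, and the null samples were labelled only with their genotype. Each array carried RNA described as a pool of 3 samples, labelled with Cy3, and a common Cy5 pool of wild-type low-fat liver. Dyes were not swapped. The labels do not say whether each pool came from separate mice, and p-values then reflect only how far these arrays differ, which may be technical. With 3 arrays per group, their number limits the precision. Values are log2 ratios of the sample over that pool, and a difference is null-labelled high fat minus wild-type low fat, so that a difference of 1 is 2-fold higher.

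CYP1B1 is a cytochrome P450 that oxidises steroids, retinoids, fatty acids and polycyclic hydrocarbons, and it is expressed mainly outside hepatocytes. Liver responds to dietary fat through nuclear receptors. PPARalpha switches on fatty acid oxidation and the Cyp4a omega-hydroxylases, SREBP-1c and ChREBP switch on fatty acid synthesis, and PPARgamma is raised with lipid storage in fatty liver. Many mouse liver genes also differ between the sexes under the pulse pattern of growth hormone, which acts through STAT5.

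Of 41174 probes, 20957 to 22773 were well above background in Cy3 on the null-labelled high-fat arrays and 18374 to 23439 were on the wild-type low-fat arrays. Wild-type low-fat array 1 stood apart from the others of its group: its log ratios correlated with those of arrays 2 and 3 at r = -0.084 and 0.086 across genes, which are not independent replicates, against 0.356 between arrays 2 and 3. The null-labelled high-fat arrays correlated at 0.524 to 0.869. The 6 arrays were read in 3 scans, which for these arrays coincide with slides. Scan 1 held null-labelled high-fat arrays 1 and 3 and wild-type low-fat array 1, scan 2 held array 2 of each group, and scan 3 held only wild-type low-fat array 3. Wild-type low-fat array 1 correlated at 0.411 and 0.468 with null-labelled high-fat arrays 1 and 3 of its scan. With null-labelled high-fat array 2 it correlated at -0.134. The part of the scan in these values was not tested. The source label names liver hepatocytes. All 10 measured hepatocyte markers of 11 listed were well above background on all 6 arrays, and so were all 15 Kupffer cell and macrophage markers, all 14 endothelial markers and 15 of 17 stellate cell markers, so markers of other liver cells were measured beside those of hepatocytes. In such bulk samples, fewer cells of a type and less RNA per cell cannot be told apart.

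The gene named in the genotype label did not read as lost. Cyp1b1 (probe A_51_P255456) had log2 ratios of 0.63, 1.62 and 1.16 on the null-labelled high-fat arrays, against 0.15, -0.84 and -1.06 on the wild-type low-fat arrays, where it was well above background on 1 of 3 arrays. The groups did not overlap. The difference was 1.72 (SE 0.33), with limma's adjusted p = 0.0985, and within scans it was 0.75 in scan 1 and 2.46 in scan 2. A second Cyp1b1 probe was not well above background on enough arrays to be measured. No source used here places these probes relative to the deletion, so they do not check the genotype label, and the samples are called null-labelled throughout. Nnt encodes the mitochondrial transhydrogenase that makes NADPH, and C57BL/6J mice carry a deletion in it. Its brightest probe read 0.60, 0.85 and 0.68 on the null-labelled high-fat arrays and 0.21, -0.40 and -0.18 on the wild-type low-fat arrays. This was a difference of 0.83 (SE 0.17) that did not pass, with limma's adjusted p = 0.113. On this probe Nnt averaged 0.12 in null-labelled low-fat and -0.09 in wild-type high-fat livers. Its 3 other measured probes gave 0.52, 0.51 and 0.07.

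In the main setting most genes lay close to the lean wild-type level. For 11244 of 14911 genes, 75.4%, the 95% interval of the difference (limma's moderated interval) lay wholly within 2-fold in either direction, which is the meaning of "at the lean level" below. The count depended on the normalisation, with 6286 genes (42.2%) with the scanner's processed signals and 2899 (19.4%) with arrays centred on their median in place of loess. For 48 genes, 0.322%, the interval lay wholly beyond 2-fold, 28 of them higher and 20 lower. The other 3619 genes, 24.3%, had intervals that reach across the 2-fold line, so they are placed in neither class. The median difference over all genes was 0.00078, the median size of a difference was 0.18, and the median half-width of an interval was 0.51. An adjusted p under 0.05 was reached by 23 genes, 0.154% of those tested, with 16 higher (0.107%) and 7 lower (0.0469%). Before adjustment 1230 genes (8.25%) had a p under 0.05, of which 623 were higher (4.18%) and 607 lower (4.07%). Arrays did not overlap between the groups for 788 genes that were higher (5.29%) and 634 that were lower (4.26%), of 14886 genes with all 6 values. The count of calls depended on 1 array. Without null-labelled high-fat array 3 it was 2 genes, Lifr and Nudt7. Without wild-type low-fat array 1 it was 56, and without wild-type low-fat array 2 it was 41. The arrays of the 23 genes did not overlap between the groups. Leaving out 1 array or comparing within a scan therefore could not change the sign of their differences. A fit that blocked on scan called 97 genes, all of the 23 among them, while none passed in limma with median centring in place of loess (114 with a p under 0.05 before adjustment), with the 2 groups fitted alone (808) or with a robust variance trend (1185). With the scanner's own processed signals 269 genes passed, 100 higher and 169 lower, and with the sample channel alone 211, 112 higher and 99 lower, so the split between the directions changed with the setting.

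**Figure D1:**
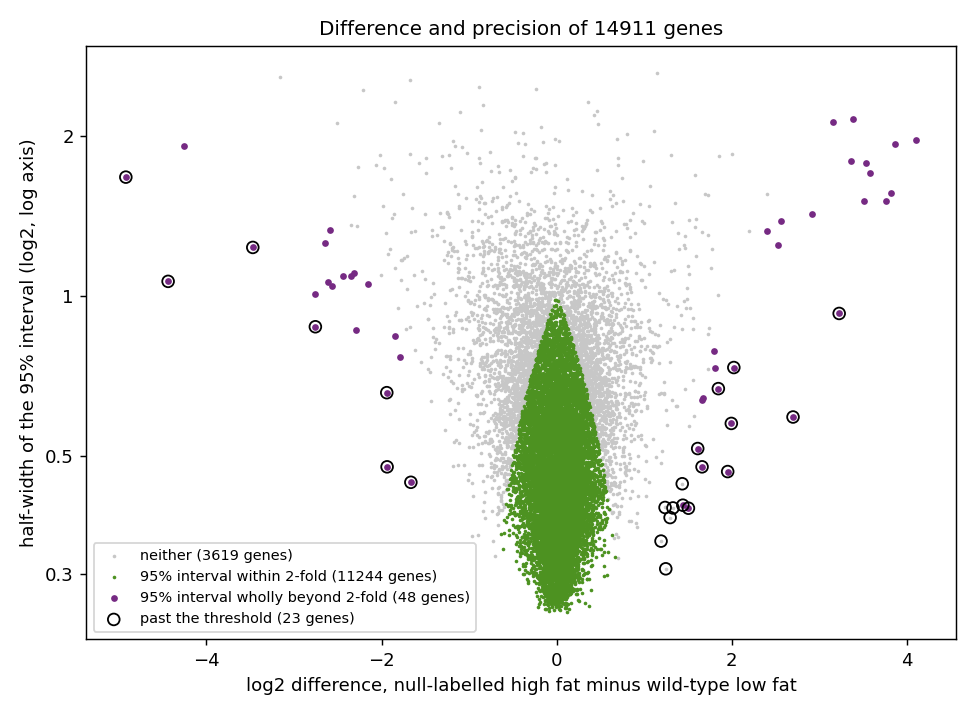
Each point is 1 of 14911 genes. The x axis is the log2 difference of null-labelled high-fat minus wild-type low-fat livers and the y axis, on a log scale, the half-width of its 95% interval. Green points (11244) have intervals within 2-fold, purple points (48) wholly beyond it, grey points (3619) neither, and black circles mark the 23 genes with an adjusted p under 0.05, of which 17 are purple.

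Moxd1 and Lifr rose the most of the genes that passed. Moxd1 encodes a copper-dependent monooxygenase-like protein of the endoplasmic reticulum, related to dopamine beta-hydroxylase. It read 3.08, 3.84 and 3.22 on the null-labelled high-fat arrays, against -0.03, 0.50 and -0.0023 on the wild-type low-fat arrays, where it was well above background on 2 of 3 arrays. The 3 null-labelled high-fat arrays lay far above all wild-type low-fat arrays, 9.35-fold on average (log2 difference 3.23, SE 0.42, limma's adjusted p = 0.0124). Lifr encodes the receptor for leukaemia inhibitory factor, which signals with gp130. Its brightest probe read 3.01, 2.85 and 3.63 against -0.05, 0.94 and 0.51 on the wild-type low-fat arrays, a difference of 2.70 (SE 0.27, limma's adjusted p = 0.00607). Its 5 measured probes were all higher but disagreed in size: the other 4 gave 0.39, 0.68, 0.84 and 1.26, and averaging all 5 gave 1.17, which did not pass.

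Enzymes of steroid and thyroid hormone metabolism were among the genes that rose. Dio1, the liver deiodinase that converts thyroxine to the active hormone, read 2.36, 1.84 and 2.40 on the null-labelled high-fat arrays, against -0.17, 0.13 and 0.65 on the wild-type low-fat arrays. The groups were well separated, and the difference was 1.99 (SE 0.26, limma's adjusted p = 0.0124). Hsd17b2, which oxidises oestradiol and testosterone to less active steroids, read 2.17, 1.77 and 2.37 against 0.75, 0.61 and 0.64 on the wild-type low-fat arrays. Its difference was 1.44 (SE 0.18, limma's adjusted p = 0.0124), and the wild-type low-fat arrays themselves lay above the wild-type pool. Hsd3b3, a 3-beta-hydroxysteroid dehydrogenase, read 1.51, 1.28 and 1.67 on the null-labelled high-fat arrays, against -0.02, 0.06 and -0.09 on the wild-type low-fat arrays. This gave 1.5 (SE 0.18, limma's adjusted p = 0.0099). The other 6 measured members of its family, described here after their values were seen, were higher as well by 0.84 to 3.39 without passing. The widest of these was Hsd3b5, at 2.74, 2.83 and 3.15 against -3.46, 2.02 and 0.0042 on the wild-type low-fat arrays, where array 1 was far below the others. Members of this family are close in sequence, and how far a probe reads its relatives was not tested.

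The remaining genes that rose fall into several roles. Nudt7 encodes a peroxisomal enzyme that breaks down coenzyme A and its esters. It read 1.89, 1.44 and 2.28 on the null-labelled high-fat arrays, against -0.04, -0.13 and -0.08 on the wild-type low-fat arrays. The difference was 1.95 (SE 0.21, limma's adjusted p = 0.00607), and a second probe gave 1.80. Aox3, an aldehyde oxidase that handles drugs and aldehydes, differed by 2.02 (SE 0.33, limma's adjusted p = 0.0497), and Gulo, the last enzyme of vitamin C synthesis, by 1.29 (SE 0.17, limma's adjusted p = 0.0137). The organic anion transporter genes Slc22a28 and Slc22a30 differed by 1.43 and 1.24. A pair of blood proteins made by hepatocytes rose. F11, coagulation factor XI, read 1.44, 1.47 and 1.94 on the null-labelled high-fat arrays, against 0.25, 0.34 and 0.29 on the wild-type low-fat arrays, a difference of 1.33 (limma's adjusted p = 0.0149). C8b, a chain of the membrane attack complex, read 1.47, 1.28 and 1.70 against 0.27, 0.19 and 0.25, a difference of 1.25 (limma's adjusted p = 0.00607). C8b had the tightest wild-type low-fat values of the genes that passed, with an SD of 0.04. Selenbp1, a selenium-binding protein, differed by 1.66, and its close relative Selenbp2, at 1.56, did not pass. Nrp1, a co-receptor for semaphorins and VEGF, differed by 1.85 on its brightest probe and by 0.48 and 0.32 on its other 2 probes. Fam160b1 was similar, at 1.61 on its brightest probe and 0.02 to 0.44 on its other 3. A probe with no gene name (A_52_P296632) rose by 1.19. Gulo, Slc22a30, C8b and this probe lie past the largest 12 and were added because they complete the 16.

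**Figure D2:**
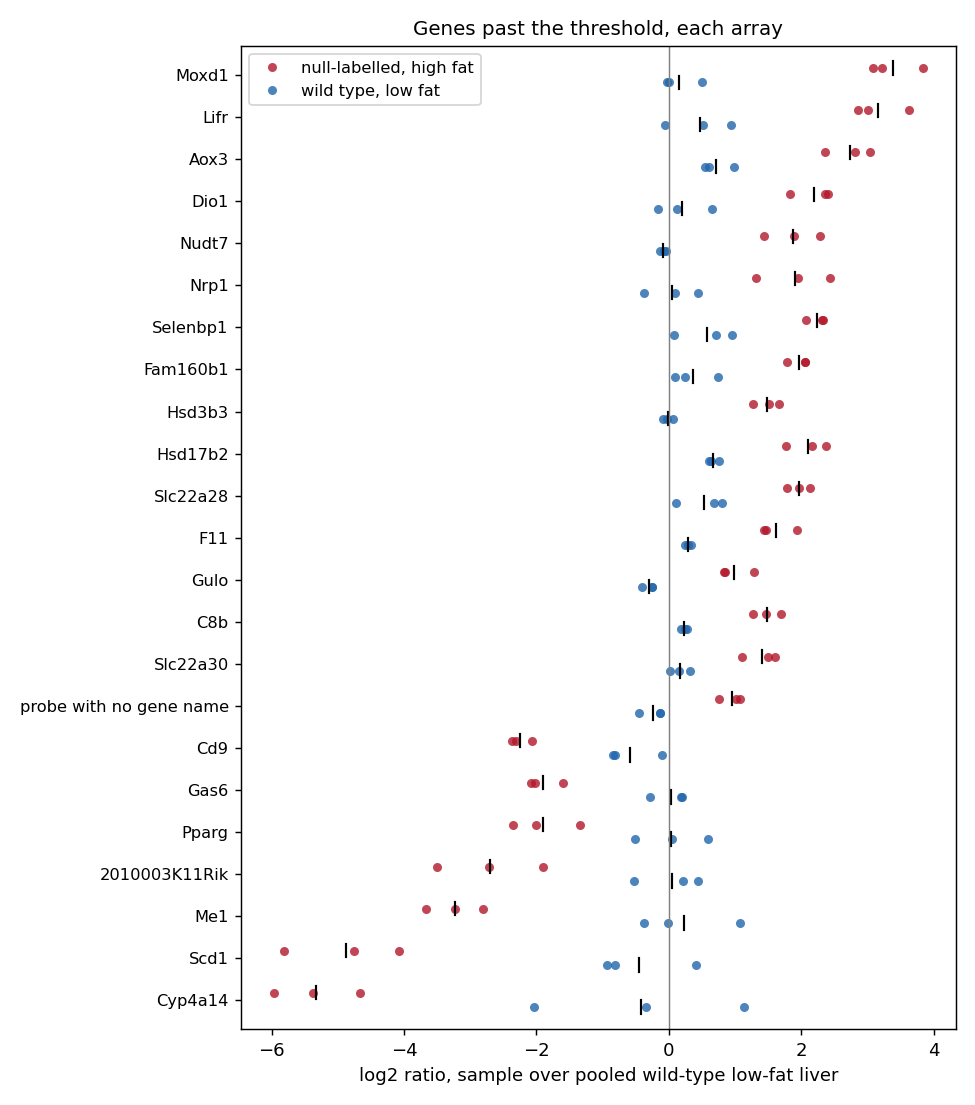
Log2 ratio to the wild-type low-fat pool (x axis) of the 23 genes with an adjusted p under 0.05, with 1 row per gene. Each row has the 3 null-labelled high-fat arrays above (red) and the 3 wild-type low-fat arrays below (blue), with a black bar at each mean. In no row do the red and blue points overlap, and Cyp4a14 has the widest spread among wild-type low-fat arrays.

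The genes that fell were led by enzymes of fatty acid metabolism. Cyp4a14, an omega-hydroxylase and classical PPARalpha target, read -4.67, -5.38 and -5.97 on the null-labelled high-fat arrays, against -0.34, -2.04 and 1.13 on the wild-type low-fat arrays. All null-labelled high-fat arrays lay below all wild-type low-fat ones, 30.3-fold on average, although the wild-type low-fat arrays spread widely. The difference was -4.92 (SE 0.76, limma's adjusted p = 0.0322). Scd1, the delta-9 desaturase that makes oleate, read -5.81, -4.08 and -4.76 against -0.82, 0.41 and -0.93 on the wild-type low-fat arrays. It was 21.6-fold lower (log2 difference -4.44, SE 0.48, limma's adjusted p = 0.00607). Me1, the cytosolic malic enzyme that supplies NADPH for fatty acid synthesis, read -2.80, -3.24 and -3.68 against -0.37, 1.07 and -0.01 on the wild-type low-fat arrays. It was 11.1-fold lower (-3.47, SE 0.56, limma's adjusted p = 0.0457), and a second probe gave -3.59.

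A regulator, a ligand and a membrane protein fell too. Pparg read -1.34, -2.01 and -2.36 on the null-labelled high-fat arrays, against 0.05, -0.52 and 0.59 on the wild-type low-fat arrays, a difference of -1.94 (SE 0.30, limma's adjusted p = 0.0322). Gas6, a ligand of the Tyro3, Axl and Mertk receptors, read -1.61, -2.08 and -2.03 against 0.18, -0.28 and 0.20, a difference of -1.94 (SE 0.22, limma's adjusted p = 0.00607). Cd9, a tetraspanin, read -2.07, -2.30 and -2.38 against -0.10, -0.85 and -0.82, a difference of -1.66 (SE 0.20, limma's adjusted p = 0.0099). Stellate cell markers had a median difference of -0.46 and Kupffer cell markers of -0.10, which were 0.07 and 0.21 without wild-type low-fat array 1, and their part in these values was not tested. For each of these 3 genes the highest null-labelled high-fat array lay below the lowest wild-type low-fat array. The clone 2010003K11Rik also fell, by 2.75 on the log2 scale (SE 0.40, limma's adjusted p = 0.0216).

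The next 6 lower genes by p whose arrays did not overlap did not pass. Hamp2, a hepcidin family member, read -2.13, -2.85 and -1.94 on the null-labelled high-fat arrays, against -0.30, 1.31 and 0.35 on the wild-type low-fat arrays (difference -2.76, SE 0.46, limma's adjusted p = 0.0504). Fgf21, a hormone secreted by the fasting liver, read -3.48, -3.23 and -4.38 against -0.46, -2.11 and -0.82 on the wild-type low-fat arrays (difference -2.57, SE 0.48, limma's adjusted p = 0.0806). Lgals1, which encodes galectin-1, differed by -2.29 (SE 0.39, limma's adjusted p = 0.0607). Scpep1, Tmem106b and Tmem51 had differences of -0.97, -0.90 and -1.19. Other measured probes gave -0.10 for Scpep1 and -0.34 and -0.46 for Tmem106b. All 6 genes passed with slide as a random block, and Hamp2, Lgals1, Scpep1 and Tmem51 also with scan as a block. With slide as a fixed term Tmem106b, Tmem51 and Fgf21 did not pass (limma's adjusted p = 0.0725, 0.0687 and 0.0631). Of 20 alternative settings, Lgals1 passed in 10, Hamp2 in 8, Scpep1 in 7, Tmem51 in 5, Fgf21 in 4 and Tmem106b in 3.

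Promoter sequence is shown for Moxd1, the gene with the largest rise, and for C8b, whose arrays agreed best, because these 2 genes were the exceptions to the pattern over the 4 groups described after them. The sequences are the 250 bases before the annotated start in RefSeq on GRCm38.p6, plus strand for both, at chr10:24223267-24223516 for Moxd1 and chr4:104766067-104766316 for C8b, written 5′ to 3′. Capitals mark a match to the STAT5 motif TTCNNNGAA, which reads the same on both strands.
Moxd1: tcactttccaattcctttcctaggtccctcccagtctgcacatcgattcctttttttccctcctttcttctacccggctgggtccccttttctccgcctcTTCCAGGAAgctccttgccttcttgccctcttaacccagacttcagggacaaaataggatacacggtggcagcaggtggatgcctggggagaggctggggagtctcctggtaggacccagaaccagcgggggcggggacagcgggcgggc
C8b: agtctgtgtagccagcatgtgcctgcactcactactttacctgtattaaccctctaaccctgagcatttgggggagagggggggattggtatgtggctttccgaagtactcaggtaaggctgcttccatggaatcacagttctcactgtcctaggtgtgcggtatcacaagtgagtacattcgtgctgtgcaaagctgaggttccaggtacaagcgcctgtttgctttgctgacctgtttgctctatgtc
The match in Moxd1 starts 150 bases before the gene's start, and C8b has none in this window. Of 24 promoter windows of the 18 called genes with an entry, 1 held the motif, while 7.02% of all 32851 windows of this length did. The consensus PPAR direct repeat with a spacer of 1 base, searched on both strands, was in none of the 24 windows and in 0.0335% of all windows. A match is a description of these letters and not a site.

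The levels in the other groups placed the genes that passed into different patterns. These groups share the fit and the pool with the comparison, so the values are given side by side. For 14 of the 16 genes that were higher, the means of both wild-type high-fat and null-labelled low-fat livers lay between the null-labelled high-fat and the wild-type low-fat mean. The exceptions were Moxd1 and C8b. Moxd1 averaged 3.38 ± 0.40 in null-labelled high-fat livers, 3.53 in null-labelled low-fat livers, -0.03 in wild-type high-fat livers and 0.16 ± 0.30 in wild-type low-fat livers (SD, n = 3 each), and C8b averaged 1.48, 1.63, 0.07 and 0.24 in the same order of groups. For 15 of the 16, null-labelled low-fat livers were nearer to null-labelled high-fat livers than wild-type high-fat livers were. The exception was Dio1, at 2.20 in null-labelled high-fat, 1.28 in null-labelled low-fat, 1.67 in wild-type high-fat and 0.20 in wild-type low-fat livers. Between null-labelled and wild-type livers on high fat, limma's adjusted p was under 0.05 for Moxd1 (0.0394) and C8b (0.0088) and for no other gene (0.0134% of genes). On low fat the same contrast had limma's adjusted p of 0.0293 for Moxd1 and 0.0096 for C8b, with Cyp2a5 as the last of 3 genes (0.0201%).

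The genes that fell divided differently. Cyp4a14 and Pparg were low in null-labelled livers on either diet: Cyp4a14 averaged -5.34 in null-labelled high-fat, -5.51 in null-labelled low-fat, 0.05 in wild-type high-fat and -0.42 in wild-type low-fat livers, and Pparg averaged -1.90, -1.93, -0.41 and 0.04. Cd9 was low in high-fat livers of either label, at -2.25 in null-labelled high-fat, -1.42 in null-labelled low-fat, -2.40 in wild-type high-fat and -0.59 in wild-type low-fat livers, and it was the 1 gene past the threshold between wild-type livers on high and on low fat (limma's adjusted p = 0.0294, 0.00671% of genes). Scd1 and Me1 were lowest where the null label and the high-fat diet met. Scd1 averaged -4.88 in null-labelled high-fat, 0.26 in null-labelled low-fat, -2.05 in wild-type high-fat and -0.45 in wild-type low-fat livers, and Me1 averaged -3.24, 0.14, -0.74 and 0.23. Scd1 was the 1 gene past the threshold between null-labelled livers on high and on low fat (limma's adjusted p = 0.0053, 0.00671% of genes). Gas6 was at an intermediate level in the other 2 groups, with means of -1.90, -1.17, -1.26 and 0.03 in the same order.

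**Figure D3:**
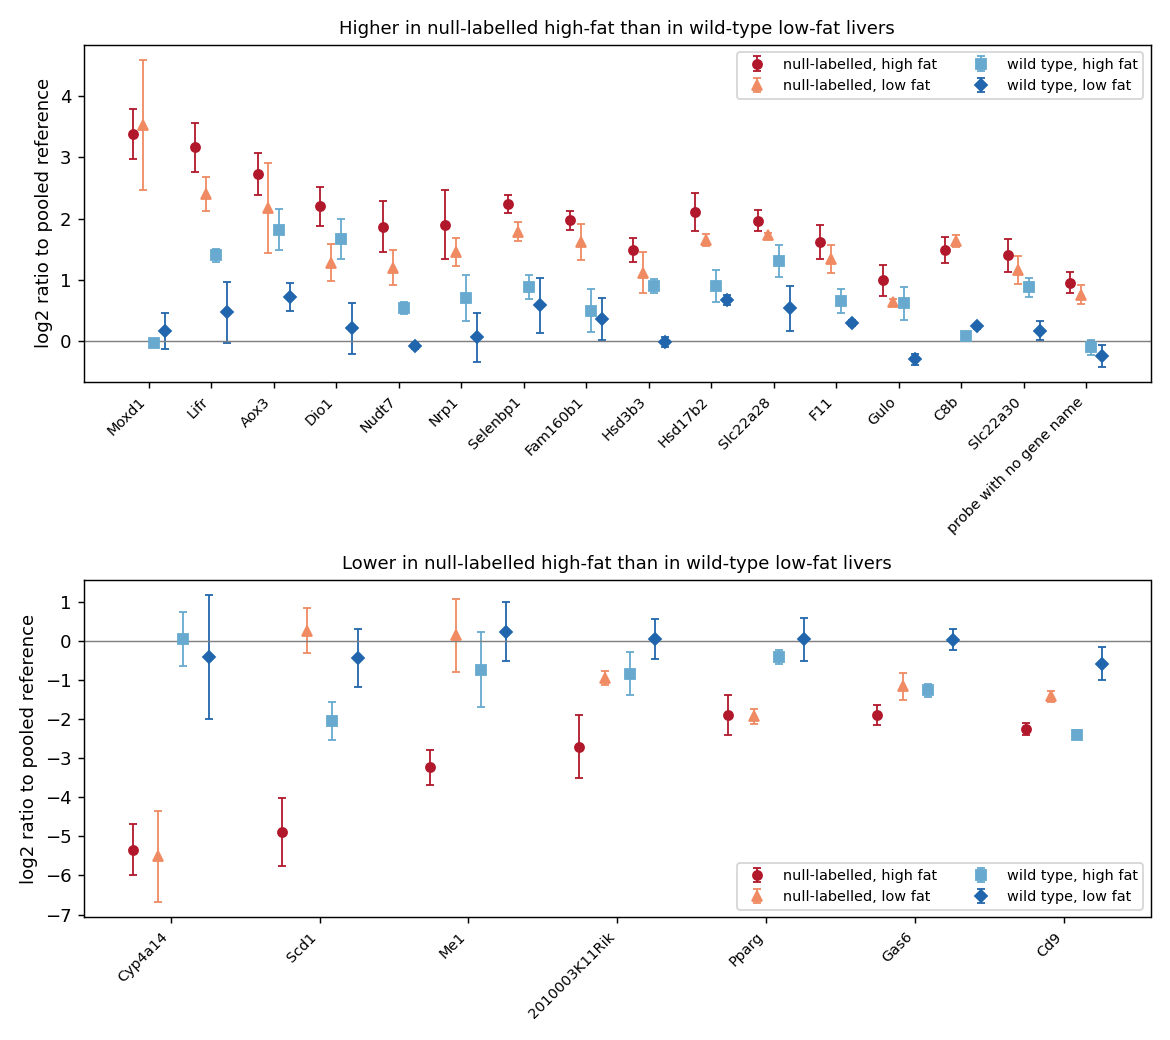
Mean log2 ratio to the wild-type low-fat pool (y axis, bars are SD over 3 arrays) of the 23 genes with an adjusted p under 0.05 in all 4 groups, with the 16 that were higher in null-labelled high-fat livers on top and the 7 that were lower below. Moxd1 and C8b average -0.03 and 0.07 in wild-type high-fat livers, against 0.16 and 0.24 in wild-type low-fat livers. Moxd1 was well above background on 1 of 3 wild-type high-fat arrays. Cyp4a14 and Pparg are as low in null-labelled low-fat as in null-labelled high-fat livers, and Scd1 and Me1 are lowest in null-labelled high-fat livers.

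Pathway lists are described by how many of their measured members were at the lean level and by their median difference, read against 75.4% and 0.00078 for all genes. Over all genes 0.107% passed as higher and 0.0469% as lower. By an unadjusted p under 0.05, 4.18% of all genes were higher and 4.07% lower. Counts of members, here and for the marker lists, are read against these shares. The median half-width of an interval was wider in every list than the 0.51 of all genes, from 0.62 for complement and coagulation to 1.34 for acute phase proteins, and a wide interval can keep a gene out of the lean class whatever its difference. Members are placed by their brightest probe. Of those named below as within 2-fold, Adh1, Agpat2, Dgat2, Fdps, H2-D1, H2-K1, Khk and Serpinc1 had another probe whose interval reaches beyond it. Leaving out 1 array moved the median of 20 of the 24 lists by over 1.5 times. Those that stayed were the male-biased, NRF2, Ah receptor and complement and coagulation lists. With arrays centred on their median in place of loess, the medians of these lists were 1.59, -0.07, 0.41 and 0.85 in that order. Among the 20 were PPARalpha targets (-0.53 without wild-type low-fat array 2), PPARgamma targets and lipid droplets (-0.42 without wild-type low-fat array 3) and female-biased genes (-0.32 without null-labelled high-fat array 2). For fatty acid oxidation the median was 0.06 and for the apolipoproteins 0.31 without wild-type low-fat array 1, and for the urea cycle list it was 0.77 without null-labelled high-fat array 2. The interferon-stimulated genes had the highest share of the 24 lists, 20 of 30 (66.7%), with differences from -0.53 to 0.45 and no member past the threshold. Bst2, a membrane protein that tethers viruses, and Irgm1, an interferon-induced GTPase, differed by -0.27 and 0.45 with intervals within 2-fold. The median of the list was -0.23, and it turned to 0.05 when arrays were centred on their median in place of loess, a setting that moved the median of all genes to 0.20, and to 0.02 within scan 2. Oxidative phosphorylation followed with 17 of 32 members at the lean level (53.1%) and a median of -0.09, which turned to 0.40 with median centring, 0.03 without wild-type low-fat array 3 and 0.02 and 0.01 within scans 1 and 2. Atp5a1, a subunit of ATP synthase, differed by 0.31 and Cox5a, of cytochrome oxidase, by -0.11, both within 2-fold. Ndufc1 and Cox7a2 had the smallest p of the list, at -0.86 and -0.91, and did not pass. Their other measured probes gave -0.57 and -0.0041 for Ndufc1 and -1.16 for Cox7a2.

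Several other metabolic lists had no member past the threshold and more than 40% at the lean level. Retinoid storage and oxidation had 11 of 21 within 2-fold and a median of -0.06, which was 0.30 with median centring. Its alcohol dehydrogenase Adh1 differed by -0.06, and Rdh16, a retinol dehydrogenase, by -1.41 (-0.97, -1.46 and -1.41 on the null-labelled high-fat arrays, against -0.75, 1.14 and 0.01 on the wild-type low-fat arrays, where array 1 lay near the null-labelled arrays). Apolipoproteins and lipoprotein assembly had 10 of 23 and a median of 0.18, with Apoa1, the main protein of HDL, at 0.17. Fatty acid oxidation had 13 of 30 and a median of 0.11. Its thiolase Acaa2 differed by 0.05 and the electron carrier Etfb by 0.13, while the peroxisomal reductase Decr2 read 0.38, 0.64 and 0.49 on the null-labelled high-fat arrays, against -0.37, -0.09 and -0.15 on the wild-type low-fat arrays. Decr2 is the member with the smallest p, at a difference of 0.71 (SE 0.15, limma's adjusted p = 0.113). Cholesterol synthesis had 11 of 26, with Ebp at -0.27 and Fdps at -0.33 within 2-fold. Hmgcs1, the synthase that starts the pathway, differed by -1.24 on its brightest probe without passing, by -0.30 and 0.10 on its other probes and by 2.59 with processed signals, and the list's median of -0.32 turned to 0.11 with median centring. The small Ah receptor list, which includes Cyp1b1, had 4 of 9 and a median of 0.22, with the dimerisation partner Arnt at 0.11.

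**Figure D4:**
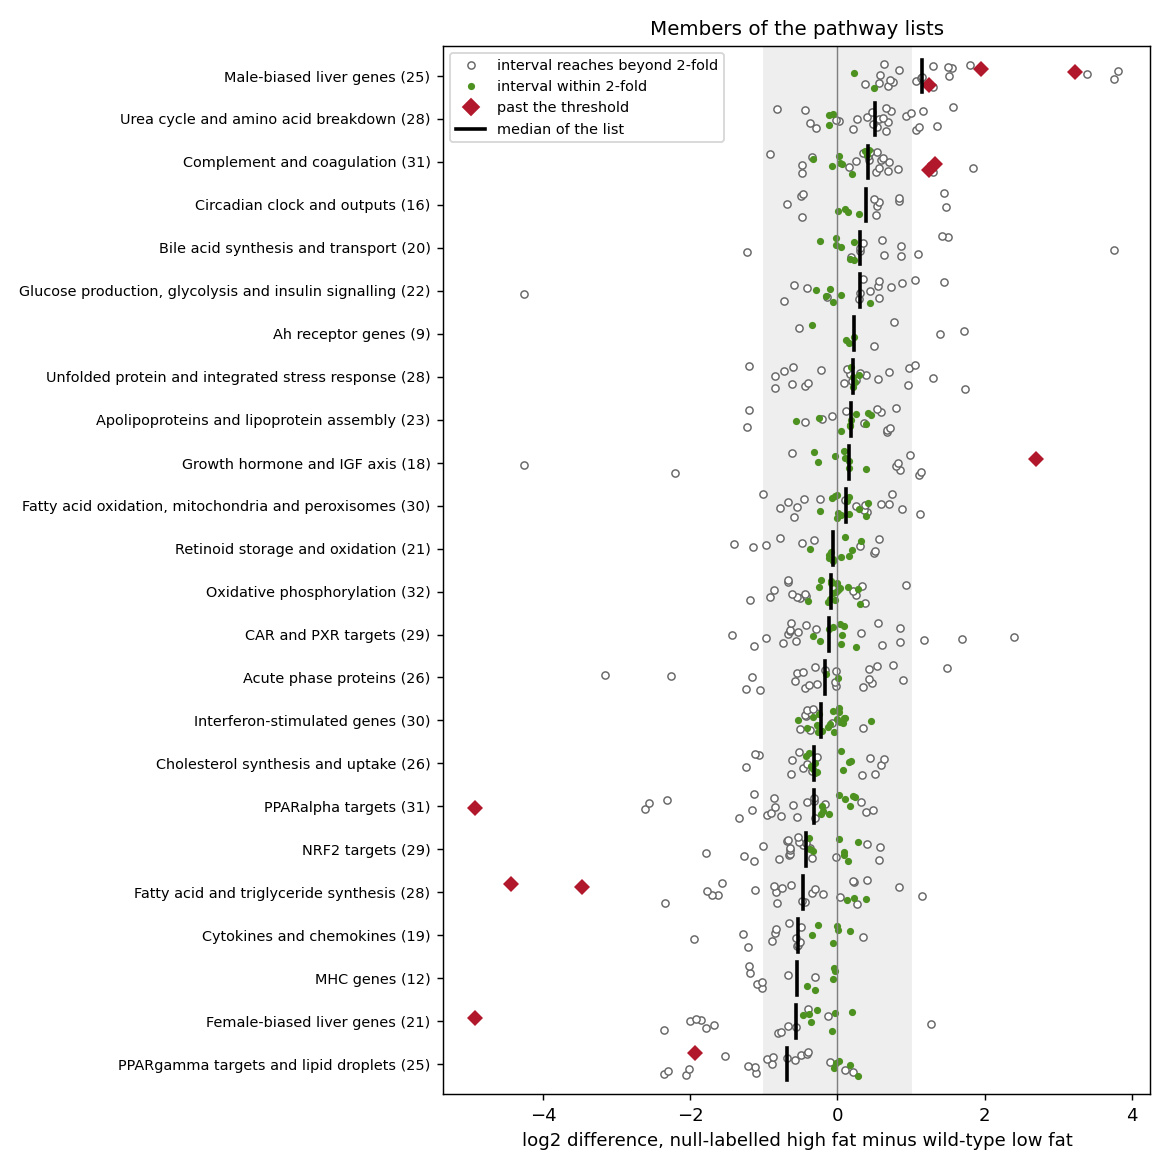
Log2 difference of null-labelled high-fat minus wild-type low-fat livers (x axis) for each measured member of the 24 pathway lists, 1 row per list with the number of measured members in brackets, ordered by median. Green points have 95% intervals within 2-fold (grey band), open points reach beyond it, red diamonds have an adjusted p under 0.05 and black bars are medians. The male-biased list lies wholly to the right of 0 with a median of 1.15, and the list of PPARgamma targets and lipid droplets has the lowest median, -0.68. With arrays centred on their median in place of loess, the medians of the cholesterol, interferon, oxidative phosphorylation, retinoid, acute phase and CAR and PXR lists are above 0.

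Lists of lipid synthesis and storage had medians below 0, and the list of PPARgamma targets and lipid droplets had the lowest of the 24. Of 28 genes of fatty acid and triglyceride synthesis, 2 fell (Scd1 and Me1), 8 were lower and 1 was higher by an unadjusted p under 0.05, 3 were at the lean level and the median was -0.46. This median was -0.77 with null-labelled high-fat array 3 left out, -0.25 with array 2 of the wild-type low-fat group left out, -0.08 with median centring, -0.25 within scan 1 and -1.19 within scan 2. Within that list the acyltransferases Dgat2 and Agpat2, which work late in triglyceride assembly, differed by 0.23 and 0.14 with intervals within 2-fold. Among the synthesis enzymes that did not pass, named after their values were seen, Fasn differed by -1.77, Acacb by -2.34, Elovl5 by -1.62 and Elovl6 by -1.70. The list of PPARgamma and lipid droplet genes had 20 of 25 members lower, 9 of them with an unadjusted p under 0.05, and none higher at that level. Pparg fell, 5 members were at the lean level and the median was -0.68. Adipocyte markers, of which 4 of 8 were measured (3 lower and 1 higher), had a median of -1.39 that was 0.04 within scan 1. The part of adipocytes in these values was not tested. Mgll, which cleaves monoglycerides, and Hsd17b11, a lipid droplet enzyme, differed by 0.02 and 0.17 within 2-fold. The array medians of this list were -0.32, -0.69 and -1.02 on the null-labelled high-fat arrays and -0.18, -0.51 and 0.29 on the wild-type low-fat arrays, so the groups overlapped.

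Of 31 PPARalpha targets, 1 fell (Cyp4a14), 10 were lower and none was higher by an unadjusted p under 0.05, and 9 were at the lean level. The mitochondrial carrier Slc25a47 differed by 0.02, within 2-fold. Cyp4a10, the close relative of Cyp4a14, read -1.91, -2.14 and -3.05 on the null-labelled high-fat arrays, against -0.46, -0.41 and 1.62 on the wild-type low-fat arrays (difference -2.61, SE 0.48, limma's adjusted p = 0.0806). The arrays overlapped for the other 3 measured Cyp4a genes, listed after their values were seen, with Cyp4a12a at 1.07, Cyp4a12b at 0.71 and Cyp4a31 at -0.85. The list's median was -0.32 against wild-type low-fat livers. Its median difference was 0.33 for wild-type high-fat and -0.71 for null-labelled low-fat livers, each against the same wild-type low-fat arrays.

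Male-biased genes, which males normally express above females in mouse liver, were higher together although all mice were male. All 25 measured members of 28 listed were higher, 3 of them past the threshold (Moxd1, Nudt7 and C8b) and 15 at an unadjusted p under 0.05, and 2, Alas2 and Ihh, were at the lean level. The median was 1.15, with array medians of 1.35, 1.23 and 1.57 on the null-labelled high-fat arrays, against -0.07, 0.74 and 0.25 on the wild-type low-fat arrays. The groups did not overlap, but wild-type low-fat array 1 was the lowest, and without it the median was 0.77. Cyp7b1, which hydroxylates oxysterols and steroids, read 3.64, 3.83 and 3.62 on the null-labelled high-fat arrays, against -2.22, 1.43 and 0.62 on the wild-type low-fat arrays (difference 3.76, SE 0.69, limma's adjusted p = 0.0806, and 0.0293 with scan as a block). Mup1, a major urinary protein, read 4.10, 2.95 and 4.08 against -2.31, 1.16 and 0.84 (difference 3.82, SE 0.71, limma's adjusted p = 0.083). In both, wild-type low-fat array 1 was far below the other arrays. Of 20 alternative settings, Cyp7b1 passed in 9. The 6 measured major urinary protein genes, listed after their values were seen, were higher by 0.83 to 4.10, and none passed. The lowest was Mup3, whose arrays overlapped between the groups. Members of this family are related in sequence, and how far a probe reads its relatives was not tested.

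Female-biased genes were mostly lower. Of 21 measured members of 29 listed, 19 were lower, 1 fell (Cyp4a14), 9 were lower and 1 was higher by an unadjusted p under 0.05, and 7 were at the lean level. Cyp2c40 and Trim24 differed by -0.36 and -0.28 with intervals within 2-fold. A second Cyp2c40 probe read 0.77, with an interval from -0.07 to 1.61. The median was -0.57, with array medians of -0.10, -1.0 and -0.55 on the null-labelled high-fat arrays and 0.35, -0.38 and 0.28 on the wild-type low-fat arrays, which overlap. Array medians of the male-biased list were 1.40, 1.47 and 1.27 on the null-labelled low-fat arrays, against 0.68, 0.67 and 0.64 for wild type on high fat. The growth hormone and IGF axis itself had 8 of 18 members at the lean level and a median of 0.16. Igf1, the main endocrine target of growth hormone, read 0.07, 0.39 and 0.35 on the null-labelled high-fat arrays, against 0.26, 0.01 and 0.07 on the wild-type low-fat arrays, a difference of 0.15 with an interval from -0.26 to 0.57. That is its brightest probe, and its other measured probes gave -0.65, 0.99 and 0.30. The intervals of the probes at -0.65 and 0.99 reach beyond 2-fold. Lifr, listed there as a cytokine receptor, was its only member past the threshold.

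**Figure D5:**
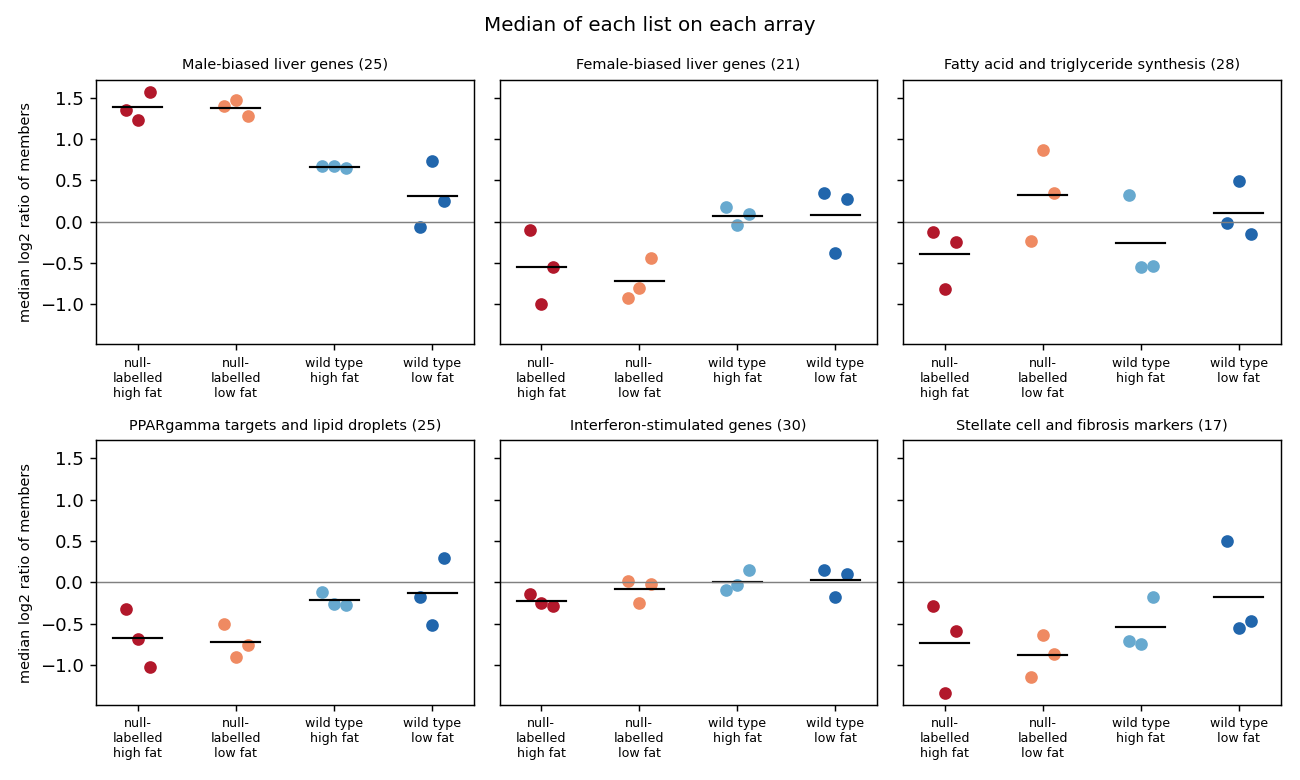
Median log2 ratio to the wild-type low-fat pool over the members of 6 lists (y axis), with 1 point per array in each of the 4 groups and a black bar at the mean of the 3 array medians. Bracketed numbers are measured members. For male-biased genes all null-labelled arrays lie above all wild-type arrays, and for the other 5 lists shown the null-labelled high-fat and wild-type low-fat arrays overlap.

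Lists of hepatocyte secretion and amino acid breakdown had medians above 0. Of 31 complement and coagulation genes, 25 were higher, 2 rose (F11 and C8b), 8 were higher and none lower at an unadjusted p under 0.05, and 9 were at the lean level. Serpinc1, which encodes antithrombin, and F10 differed by 0.37 and 0.07 with intervals within 2-fold. The median was 0.41, with array medians of 0.15, 0.33 and 0.33 on the null-labelled high-fat arrays and 0.15, -0.01 and -0.32 on the wild-type low-fat arrays. Of 28 genes of the urea cycle and amino acid breakdown, 20 were higher, 8 of them at an unadjusted p under 0.05 and none lower, with a median of 0.51, and 3 were at the lean level. Tdo2, the first enzyme of tryptophan breakdown, read 1.51, 1.15 and 1.70 on the null-labelled high-fat arrays, against 0.20, -0.70 and 0.16 on the wild-type low-fat arrays (difference 1.57, SE 0.27, limma's adjusted p = 0.0611, and 0.0293 with scan as a block). Kmo, a later enzyme of the same pathway, differed by 0.93. Within scans this list's median was 0.15 in scan 1 and 0.15 in scan 2. Bile acid synthesis and transport had a median of 0.30, which was 0.09 without null-labelled high-fat array 3, 0.60 without null-labelled high-fat array 2, 0.84 within scan 1 and 0.06 within scan 2. It had 8 of 20 members with an unadjusted p under 0.05 that were higher against 1 that was lower, and 7 at the lean level, among them the export pump Abcb11 at 0.23. Cyp27a1, a sterol hydroxylase, differed by 1.10 without passing.

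Redox, immune and stress lists had no member past the threshold. NRF2 targets had 7 of 29 lower and none higher at an unadjusted p under 0.05, and 8 at the lean level. The median of this list was -0.43, which was -0.07 with median centring. Their array medians were -0.27, -0.71 and -0.40 on the null-labelled high-fat arrays, all below the wild-type low-fat arrays, whose medians were each 0.00 to 2 decimals. Cbr1, a carbonyl reductase, differed by -0.79 and the glutathione transferase Gsta2 by -1.78, while Gsta3 and Taldo1 differed by 0.10 and 0.03 within 2-fold. All 12 measured MHC genes were lower, with a median of -0.55 that was -0.30 with wild-type low-fat array 1 left out and -0.36 with null-labelled high-fat array 2 left out, 5 at an unadjusted p under 0.05, and the class II genes H2-Ab1 and H2-Eb1 differed by -1.03 and -1.19 while the class I genes H2-K1 and H2-D1, at -0.03 and -0.07, were at the lean level. Cytokines and chemokines had 3 of 19 lower at an unadjusted p under 0.05 and a median of -0.54, which was -0.29 with wild-type low-fat array 1 left out, -0.31 with null-labelled high-fat array 2 left out and -0.19 within scan 2, with Cxcl10 at -1.95 and Il18 at 0.17. Acute phase proteins had 2 of 26 at the lean level, the lowest share of the 24 lists, and a median of -0.16 that was 0.35 with median centring, 0.08 without wild-type low-fat array 1 and 0.27 within scan 2. Mt1, a metallothionein, read -3.31, -3.80 and -3.67 on the null-labelled high-fat arrays, against 0.82, -3.25 and -1.54 on the wild-type low-fat arrays, whose values spread widely. Unfolded protein response genes had 5 of 28 at the lean level and a median of 0.21, which was -0.01 without wild-type low-fat array 3 and -0.02 within scan 1. The disulfide isomerase Pdia6 differed by 0.71 on its brightest probe, which did not pass, and by 1.40, 0.57 and 0.45 on its other measured probes. The probe at 1.40 had limma's adjusted p = 0.0254 in a fit of all measured probes.

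The last lists covered glucose, the clock and drug metabolism, and none of their members passed. Glucose production and insulin signalling had a median of 0.30, which was -0.08 within scan 2, and 6 of 22 members at the lean level, among them the fructose kinase Khk at -0.29. Igfbp1, a secreted binding protein that insulin represses, read -5.90, -3.64 and -6.39 on the null-labelled high-fat arrays, against -0.25, -1.55 and -1.36 on the wild-type low-fat arrays. The groups did not overlap, yet the difference of -4.26 (SE 0.87) did not pass, with limma's adjusted p = 0.113 (0.0414 with scan as a block). Of 20 alternative settings, Igfbp1 passed in 6. Circadian clock genes had 4 of 16 at the lean level and a median of 0.39, which was 0.08 without null-labelled high-fat array 3 and 0.16 within scan 2. The core gene Clock differed by 0.14, within 2-fold, and the output gene Dbp by 1.47, with overlapping arrays. CAR and PXR targets had 9 of 29 at the lean level and a median of -0.11, which was 0.12 with median centring, 0.03 with processed signals and 0.11 without null-labelled high-fat array 2, with Por, the reductase that feeds electrons to P450 enzymes, at 0.09, Aldh1a7 at -0.73 and Cyp2c54 at 2.40.

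Genes that differed more than 2-fold in another group were counted to show how many of them lay at the lean level in null-labelled high-fat livers, a count defined after the data had been seen. Of 158 genes whose wild-type high-fat and wild-type low-fat means differed by more than 2-fold, 106 also differed by more than 2-fold between null-labelled high-fat and wild-type low-fat livers, and 5 were at the lean level there (Cdh1, Osgin1, Orm1, Aldh3a2 and Msmo1). Orm1, an acute phase protein, averaged -0.32 in null-labelled high-fat livers, -1.34 in wild-type high-fat livers and -0.17 in wild-type low-fat livers. Of 301 genes that differed by more than 2-fold between null-labelled low-fat and wild-type low-fat livers, 187 also did so in null-labelled high-fat livers and 7 were at the lean level there. Over all genes, 346 (2.32%) differed by more than 2-fold between null-labelled high-fat and wild-type low-fat livers and 75.4% were at the lean level. The wild-type low-fat arrays stand on both sides of these counts, which ties them together, and they carry no test.

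Markers of other cell types were measured beside these results. No marker list had a member past the threshold. Hepatocyte markers had a median difference of 0.28, which was -0.12 within scan 1, with 1 of 10 higher at an unadjusted p under 0.05, Cyp2e1 at 2.40, and array medians of 0.45, 0.51 and 0.58 on the null-labelled high-fat arrays against 0.43, 0.01 and -0.24 on the wild-type low-fat arrays. Stellate cell and fibrosis markers had a median of -0.46, which was 0.07 without wild-type low-fat array 1, and array medians of -0.28, -1.34 and -0.58 against 0.50, -0.56 and -0.47 on the wild-type low-fat arrays. For Kupffer cells and macrophages the marker median was -0.10, which was 0.21 without wild-type low-fat array 1 and 0.45 within scan 2, with array medians from -0.92 to -0.06 on the null-labelled high-fat arrays and from -1.42 to 0.19 on the wild-type low-fat arrays. Cell cycle genes had a median of -0.43, which was 0.12 within scan 2, with array medians from -1.15 to -0.51 on the null-labelled high-fat arrays and from -1.19 to 0.02 on the wild-type low-fat arrays. Endothelial markers had 9 of 14 and lymphocyte and granulocyte markers 7 of 11 at the lean level, with medians of -0.04 and -0.16, and bile duct markers had 4 of 8 and a median of -0.19. The endothelial median was 0.14 and the bile duct median 0.03 without wild-type low-fat array 1. Erythroid markers had 3 of 7 measured with a median of -0.15, which was 0.14 within scan 2, and pancreas acinar markers 5 of 8 measured with a median of 0.13. Of the adipocyte markers, Adipoq, Lep, Plin1 and Retn were not measured, and 4 of 8 were, with a median of -1.39, which was 0.04 within scan 1. Of these 4, 3 were lower, with Fabp4 at -2.01, and 1 was higher, Car3, at 0.76 and on a second probe at 1.94. In the lists of stellate, macrophage and cell cycle genes, wild-type low-fat array 1 had the highest median of the 6 arrays. The part of cell composition in the gene differences was not tested.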

How the data were processed

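RNA of 12 liver samples was measured on two-colour Agilent arrays. Per the file headers, Feature Extraction under a protocol with local background made the deposited intensity values, the mean brightness and median local background of each spot in Cy3 and Cy5. Its processed intensities, deposited beside them, are background-subtracted and dye-normalised. The other deposited columns used mark each spot as well above background, saturated or non-uniform, per the file headers. The authors' table of log2 ratios (limma, per the submitters' processing notes) holds none for this comparison and was not used.

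Background was corrected by normexp (offset 50) and Cy3 over Cy5 log2 ratios normalised by within-array loess, with limma 3.58.1 in R 4.3.3. Non-uniform spots (120) and control spots were left out. A probe was measured when well above background in Cy3 on all 3 arrays of at least 1 group (21490 of 41174 probes), and each gene was read from the brightest of its measured probes. Of the probes, 24844 were named through accessions, 6045 by current and 1810 by older symbols, and 8475 kept the array's own name. All 12 arrays were fitted with a mean per group (residual degrees of freedom 8, prior 3.192). The Benjamini-Hochberg method adjusted p over 14911 genes, with a threshold of 0.05. Of these, 25 genes lacked a value on at least 1 of the 6 arrays and were fitted on the others.

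The members, gene lists and comparison were chosen with earlier results of these data known. Names and promoter sequences came from RefSeq on GRCm38.p6. Named genes were Cyp1b1, Nnt, the 12 largest called and non-overlapping genes in each direction (clones and unnamed probes left out), filled to 12 by smallest p, and per list up to 4 called members or the 2 of smallest p, with the 2 brightest within 2-fold. Other genes are named as chosen after their values were seen. Replicate numbers did not pair the samples: deviations of same-numbered arrays of the 2 groups correlated at 0.393, 0.539 and -0.067. Alternatives changed the background, normalisation, filter, probe rule, blocks, samples and variance model. In simulated data of 14878 genes for this comparison, 41.8% (28 of 67) of genes with a log2 change of 1 were called, 88.1% (59 of 67) of those with 2 and 98.5% (65 of 66) of those with 4, with 9 of 14678 genes that had no change, and 2 of 67 genes with a change of 1 had an interval within 2-fold. The simulated noise was independent between arrays and genes, without slide or scan effects. In the real data the correlation within slides was estimated at 0.386, so these rates may not hold there. Some genes are not reported here.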

Additional observations from a re-analysis of the deposited data

How the results depend on the processing

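The count of 23 called genes was 97 with scan as a block, 118 with slide as a random block and 83 with slide as a fixed term, and each of these kept all 23. It was 269 with Agilent's processed signals (22 of the 23 kept) and 211 with the sample channel alone (21 kept). The count was 1766 (23 kept) with null-labelled high-fat arrays tested against the pooled reference, which leaves out the wild-type low-fat mean and its error. It was 0 with median centring in place of loess (114 genes at an unadjusted p under 0.05), 0 with the 2 groups fitted alone (808) and 0 with limma's robust variance trend (1185), and the cause was not tested. Leaving out 1 array gave 2 to 56 calls, the fewest with null-labelled high-fat array 3 removed and the most with wild-type low-fat array 1 removed, while removing wild-type low-fat array 2 gave 41. With a replicate block, which the numbers do not warrant, 16 genes were called and 14 of the 23 kept, and Cyp1b1 and Nnt gave 1.72 and 0.83. Genes at the lean level numbered 6286 with processed signals, 2899 with median centring and 24027 of 27975 with no filter on dim probes, against 11244, and 9568 to 10563 without 1 array. Genes whose arrays did not overlap numbered 2554, 357 and 2551 under the same 3 settings and 2170 with the sample channel alone, against 1422, and 1972 to 3426 without 1 array, where fewer arrays have to be separated. Cyp1b1 passed with processed signals (4.27), slide as a random block (1.63), the sample channel alone (2.19) and the pooled reference (1.14), ranged from 1.48 to 2.09 without 1 array, passing without wild-type low-fat array 1, and was 0.75 and 2.46 within scans 1 and 2. Nnt passed with slide as a random block (0.82) and the pooled reference (0.71), ranged from 0.69 to 1.00 without 1 array, passing without wild-type low-fat array 1, and was 0.42 and 1.25 within scans 1 and 2. Hmgcs1, which did not pass at -1.24, was 2.59 with processed signals (limma's adjusted p = 0.597). Quantile normalisation of mean intensities between arrays leaves log ratios as they are, so its 23 calls test nothing. Counts stayed within 1.5 times with no filter (17), probes well above background on all 6 arrays (29) and the mean of probes (19). Of the alternative values of the counts, Cyp1b1 and Nnt, 60 stayed, 28 moved and 8 newly passed. Of those of other named genes and lists, 3137 kept direction and side of the threshold, 444 no longer passed, 117 newly passed, 193 moved by more than their spread and 1, Hmgcs1, reversed.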
